A study of Mus musculus with 11 samples.

Results

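The genes described here are 10 axon guidance genes of the Slit, Robo and netrin systems, taken as a fixed list of names out of the 54752 gene identifiers counted in each library. They are the secreted repellents Slit1, Slit2 and Slit3 and the Robo family receptors Robo1, Robo2 and Robo3. The others are the secreted cue netrin-1 (Ntn1) and the netrin receptors Dcc, Unc5c and Unc5d. The study compared neurons of the main sensory relay nuclei of the thalamus at birth: dLG, the dorsolateral geniculate nucleus of the visual pathway, VPM, the ventral posteromedial nucleus that serves touch of the face, and MGv, the auditory ventral medial geniculate nucleus. There were 11 RNA-seq libraries at postnatal day 0, with 4 for dLG, 4 for VPM and 3 for MGv, each from 4 pooled brains. All mice were of the outbred strain ICR/CD-1 and carried the alleles Gbx2CreER-IRES-EGFP/+ and R26lsl-tdTomato/+. In this line, cells that expressed Gbx2 when tamoxifen was given become labelled by the red protein tdTomato, so the sorted cells were limited to the progeny of those cells. All groups share these alleles and the tamoxifen, and each nucleus served as the comparison for the other two. Whether libraries of different nuclei came from the same brains was not stated. In bulk RNA, fewer cells that express a gene and less of its RNA in each cell cannot be told apart.

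Slit proteins are secreted ligands that turn growing axons away through Robo receptors. Netrin-1 attracts axons that carry DCC, and repels them where UNC5 receptors take part. The axons of thalamic relay neurons cross the ventral forebrain on the way to the cortex, where they meet both kinds of cue, and they are still growing into and arborising in the cortex around birth. The receptors act in the relay neurons themselves, whereas much of the ligand is made by cells along the path.

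Total counts were between 10.2 and 23.6 M counts per library, and the MGv libraries (10.2 to 13.2 M counts) were all shallower than those of dLG and VPM (15.9 to 23.6 M counts). Levels are given as TMM-scaled CPM, a gene's counts as a proportion of the scaled library total, in parts per M counts. A floor of 3 counts, which covers counting error only, corresponded to 0.127 to 0.295 CPM. Of the 10 genes, 7 passed the count filter. Slit3, Robo3 and Ntn1 did not, and for them levels are given without a test. The 6 pan-neuronal markers summed to 8425 to 11123 CPM and the 6 thalamic relay neuron markers to 1895 to 3016 CPM. The summed level of GABAergic neuron markers stayed at or below 13.8 CPM. It was 0.382 to 3.11 CPM in dLG, 4.04 to 13.8 CPM in VPM and 3.08 to 8.26 CPM in MGv. Summed astrocyte and radial glia markers were between 84.6 and 219 CPM. Summed blood markers were at 467 CPM in dLG replicate 3 and at most 11.1 CPM in the other libraries. Slc32a1 and Sox10, defining markers of inhibitory neurons and oligodendrocyte lineage cells, had at most 3 counts in every library. The summed oligodendrocyte lineage markers, however, were between 7.30 CPM (dLG) and 74.2 CPM (MGv). In 3 libraries (dLG replicate 2, VPM replicate 3 and MGv replicate 1) the chaperone gene Hspa8 was at 3.05 to 5.56 CPM, against 159 to 581 CPM in the other 8, and results that change without these 3 libraries are given both ways.

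The receptors Robo2, Unc5c and Robo1 and the ligand Slit1 were the genes with clear expression in all 11 libraries. Per kilobase of the longest coding transcript, the mean levels over the libraries were 14.7 CPM per kb for Robo2, 3.03 CPM per kb for Unc5c, 2.41 CPM per kb for Robo1 and 1.56 CPM per kb for Slit1. The other 6 genes lay far below, from 0.208 CPM per kb for Unc5d and 0.108 CPM per kb for Slit2 to 0.0712 CPM per kb for Dcc, 0.0514 CPM per kb for Ntn1, 0.0264 CPM per kb for Robo3 and 0.0187 CPM per kb for Slit3. Per kilobase of all exons joined, Robo2 remained first, at 7.43 CPM per kb, but Slit1 (1.49 CPM per kb) then stood above Robo1 (1.10 CPM per kb), so the order of these 2 genes depends on the length used. Ranked by mean CPM among the 15907 genes tested, Robo2 was at percentile 89.3, Unc5c at 64.3, Robo1 at 55.0 and Slit1 at 42.0, whereas Dcc was at 10.9.

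**Figure D1:**
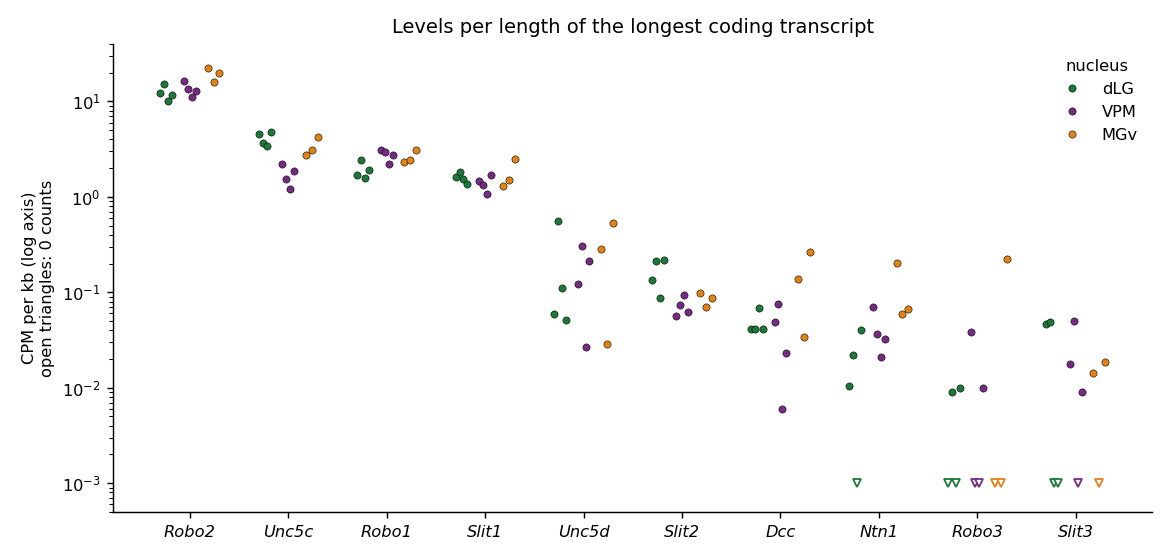
Level of each guidance gene in each library, in CPM per kb of the longest coding transcript on a log axis, with genes ordered by their mean and libraries coloured by nucleus. Points are single libraries and open triangles at the base are libraries with 0 counts. Robo2, at a mean of 14.7 CPM per kb, stands above Unc5c, Robo1 and Slit1, and the other 6 genes lie at a mean of 0.208 CPM per kb or less.

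At an adjusted p under 0.1, 2 of the 7 genes tested differed among the nuclei, Unc5c and Robo2 (edgeR's quasi-likelihood F test with Benjamini-Hochberg adjustment over all genes, adjusted p = 0.00222 and 0.0336), where 24.2% of all genes tested did. Unc5c was called between dLG and VPM, where 10.7% of all genes were called. Robo2 was called between dLG and MGv, where 16.1% were called, and both genes were called between VPM and MGv, where 19.0% were called. Against these shares, 1 or 2 of 7 genes is not a result about the list as a whole. By direction, the shares of all genes called were 4.97% higher in dLG and 5.74% higher in VPM for the first pair, 8.61% higher in dLG and 7.49% higher in MGv for the second, and 10.4% higher in VPM and 8.56% higher in MGv for the third. Scaling by total counts turned the split of the first pair from 46.4% of calls higher in dLG to 61.1%, and that of the third from 54.8% higher in VPM to 47.9%. The libraries of 2 nuclei did not overlap for 1 of the 7 genes in each pair, against 14.6%, 23.8% and 25.1% of all genes tested for dLG and VPM, dLG and MGv, and VPM and MGv.

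Unc5c, a netrin receptor that takes part in repulsion, was low in VPM. Its levels in the dLG libraries were 44.4, 35.1, 33.1 and 45.8 CPM. In VPM they were 21.5, 14.8, 11.7 and 17.9 CPM, and in MGv 26.4, 29.6 and 40.8 CPM. Every VPM library lay below every dLG and every MGv library, while the dLG and MGv libraries overlapped. Unc5c was thus 2.41-fold higher in dLG (39.6 ± 6.44 CPM, SD, n = 4) than in VPM (16.4 ± 4.20 CPM, SD, n = 4), a log2 difference of 1.27 ± 0.21 (SE, edgeR adjusted p = 0.00194). It was 1.96-fold lower in VPM than in MGv (32.3 ± 7.59 CPM, SD, n = 3), with a log2 difference of -0.97 ± 0.22 (SE, edgeR adjusted p = 0.0114). Between dLG and MGv the log2 difference was 0.30, with a 95% interval from -0.18 to 0.78 (edgeR adjusted p = 0.469). Both differences from VPM kept an adjusted p under 0.1 with every other tool, scaling and filter tried and without any 1 library, with adjusted p up to 0.0711. Without the 3 low-Hspa8 libraries the log2 differences were 1.19 and -0.98.

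The dissociation response, summed over 6 immediate early and heat shock genes, was also lower in VPM (195 to 264 CPM) than in dLG (356 to 499.9 CPM) and MGv (399.6 to 550.0 CPM). Of these 6 genes, 2 differed among the nuclei (edgeR adjusted p under 0.1). Summed thalamic relay neuron markers were at 1895 to 2458 CPM in VPM, below every dLG library (2503 to 3016 CPM) and overlapping MGv (2446 to 2628 CPM), and all 6 of these markers differed among the nuclei (edgeR adjusted p under 0.1). Summed GABAergic neuron markers and summed habenula markers were higher in every VPM library than in every dLG library, but overlapped between VPM and MGv. Whether any of these measures has a part in the level of Unc5c was not tested. The Unc5c gene spans chr3:141465216-141834924 on the plus strand (GRCm38), and 0.62% of its exon length is shared with the annotated gene Gm15688.

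A further pair of UNC5 receptors, which are not in the list of 10 genes and not among the genes the naming rule below selects, were picked once their values were known. Both were at higher levels in VPM, and because of this choice the adjusted p of Unc5a are given only as a description. Unc5a was at 8.78 ± 1.69 CPM in VPM (SD, n = 4), above 4.48 ± 1.72 CPM in dLG (SD, n = 4, edgeR adjusted p = 0.0675) and 3.88 ± 1.25 CPM in MGv (SD, n = 3, edgeR adjusted p = 0.0340). Its VPM libraries (6.57 to 10.1 CPM) overlapped those of dLG (3.27 to 7.00 CPM) but not those of MGv (2.46 to 4.76 CPM). Unc5b was at 1.34 to 2.17 CPM in the VPM libraries and at most 0.426 CPM in the others, with 29 to 43 counts in VPM, 0 to 8 in dLG and 0 to 4 in MGv. It passed the count filter only through VPM, so no test of it is given. Per kb, Unc5c made up 75.6 ± 10.1% of the summed Unc5a, Unc5b, Unc5c and Unc5d level in dLG (SD, n = 4) and 72.8 ± 7.80% in MGv (SD, n = 3), but 38.9 ± 6.20% in VPM (SD, n = 4). Unc5a made up 20.3 ± 6.04%, 21.0 ± 5.31% and 50.4 ± 4.19% in dLG, MGv and VPM. The summed levels were 5.46 ± 0.743 CPM per kb in dLG, 4.37 ± 0.757 in VPM and 4.62 ± 1.17 in MGv. The shares are given as a description, with no test.

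Robo2, the main Robo receptor in these neurons, was high in MGv. Its levels were 106, 131, 88.0 and 101 CPM in dLG, 141, 115, 95.4 and 111 CPM in VPM, and 191, 137 and 171 CPM in MGv. The MGv libraries all lay above those of dLG, but the lowest of them was below the highest of VPM. Robo2 was 1.56-fold lower in dLG (107 ± 17.9 CPM, SD, n = 4) than in MGv (166 ± 27.0 CPM, SD, n = 3), a log2 difference of -0.64 ± 0.17 (SE, edgeR adjusted p = 0.0243). This call was lost without MGv replicate 1, where the log2 difference was -0.53 (adjusted p = 0.115). Between VPM (116 ± 18.8 CPM, SD, n = 4) and MGv the log2 difference was -0.53 ± 0.17 (SE, edgeR adjusted p = 0.0595). That second call did not hold without VPM replicate 2 (adjusted p = 0.116), VPM replicate 4 (0.110), MGv replicate 1 (0.225) or MGv replicate 3 (0.162), and without the 3 low-Hspa8 libraries the log2 difference was -0.35 (adjusted p = 0.158). Limma voom gave an adjusted p of 0.103. Between dLG and VPM the log2 difference was -0.12, with a 95% interval from -0.46 to 0.22.

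After thinning all libraries to the smallest total, Robo2 remained higher in MGv. The log2 differences were -0.61 for dLG minus MGv and -0.53 for VPM minus MGv (edgeR adjusted p = 0.0249 and 0.0467). Summed oligodendrocyte lineage markers were at 65.3 to 74.2 CPM in MGv, 26.1 to 35.0 CPM in VPM and 7.30 to 21.6 CPM in dLG, with Sox10 at or near 0 throughout. Of these 5 markers, 2 passed the count filter and 1 differed among the nuclei (edgeR adjusted p under 0.1). Summed habenula markers were at 46.3 to 99.1 CPM in MGv, 38.4 to 69.0 CPM in VPM and 15.3 to 18.0 CPM in dLG, with Tac2 at or near 0. Their part in the level of Robo2 was not tested.

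Robo1, the second Robo receptor, was lowest in dLG, but the difference did not pass the threshold. Its levels were 12.8, 18.4, 11.9 and 14.6 CPM in dLG, 23.5, 22.5, 16.7 and 20.7 CPM in VPM, and 17.5, 18.5 and 23.2 CPM in MGv. Only dLG replicate 2, a low-Hspa8 library, reached the range of the other nuclei. The log2 difference between dLG (14.4 ± 2.89 CPM, SD, n = 4) and VPM (20.9 ± 3.01 CPM, SD, n = 4) was -0.53 ± 0.19 (SE, edgeR adjusted p = 0.114). Without dLG replicate 2 it was -0.69 (adjusted p = 0.0412), without VPM replicate 3 it was -0.62 (adjusted p = 0.0524), and without all 3 low-Hspa8 libraries -0.76 (adjusted p = 0.0150). It also passed with DESeq2 (adjusted p = 0.0373) and limma voom (0.00283). DESeq2 size factors (0.0939), at least 10 counts in every library (0.0991) and a term for the low-Hspa8 libraries (0.0918) passed too. It did not pass with total counts (0.251), no count filter (0.205), replicate number as a block (0.166) or thinned counts (0.163). Nor did a robust fit (0.113), only those nuclei (0.114) or leaving out any other single library (0.105 to 0.251). Removing the 3 libraries together was chosen after seeing the data. The log2 difference between dLG and MGv (19.8 ± 3.05 CPM, SD, n = 3) was -0.45 ± 0.20 (SE, edgeR adjusted p = 0.190). It was -0.59 without dLG replicate 2 (adjusted p = 0.0742) and -0.68 without the 3 libraries (adjusted p = 0.0329). All other alternatives left it above the threshold (adjusted p from 0.120 to 0.488). Between VPM and MGv the log2 difference was 0.08, with a 95% interval from -0.35 to 0.52.

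The ratio of Robo1 to Robo2 within a library, which does not depend on how libraries are scaled, set VPM apart. On the log2 scale, with counts per kb of the longest coding transcript and 0.5 counts added, it was -2.40, -2.17, -2.33 and -2.23 in the VPM libraries. It was -2.86, -2.64, -2.70 and -2.61 in dLG and -3.26, -2.70 and -2.70 in MGv, so that every VPM library lay above every other library. The VPM mean was -2.28 ± 0.10 (SD, n = 4), the dLG mean -2.70 ± 0.11 (SD, n = 4) and the MGv mean -2.89 ± 0.32 (SD, n = 3). The ratio differed among the nuclei (exact permutation of all libraries among the nuclei, p = 0.00277, Benjamini-Hochberg adjusted over 4 ratios p = 0.0111). It remained past 0.05 without any 1 library (adjusted p from 0.00381 to 0.0356), but without the 3 low-Hspa8 libraries the adjusted p was 0.110. As a share of the summed Robo level per kb, Robo2 made up 82.8 ± 0.974% (SD, n = 4) for VPM, 86.7 ± 0.921% (SD, n = 4) for dLG and 87.7 ± 2.51% (SD, n = 3) for MGv.

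**Figure D2:**
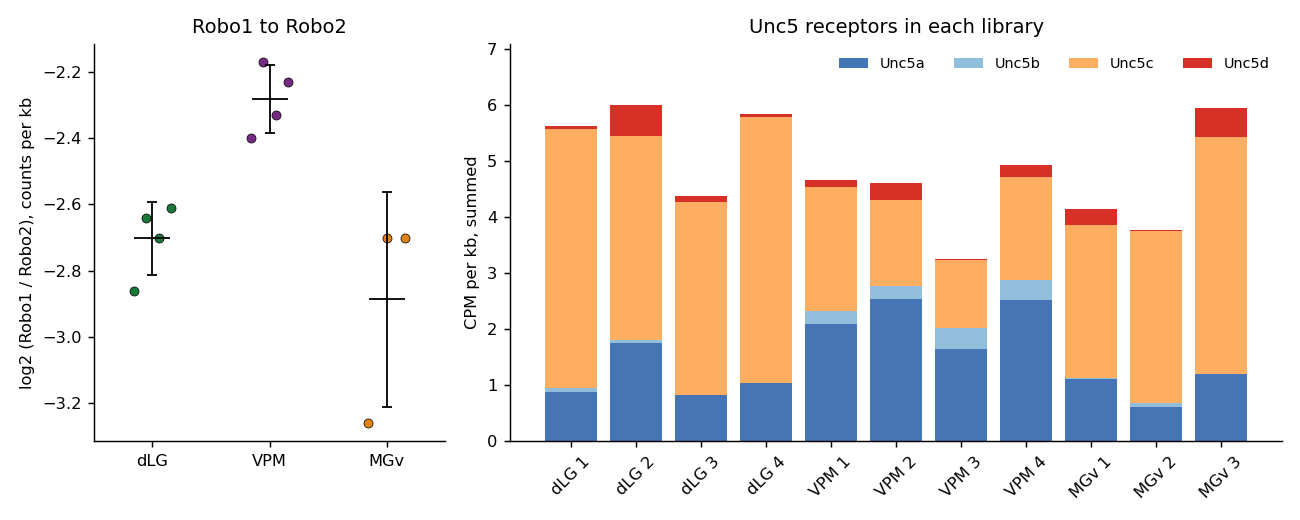
Left, log2 ratio of Robo1 to Robo2 (counts per kb) in each library, with the mean and SD of each nucleus as a bar with whiskers. Right, stacked levels of the 4 UNC5 receptors in each library, in CPM per kb. All VPM libraries have a ratio of -2.40 or more, above all libraries of dLG and MGv, and Unc5c makes up 33.2 to 47.7% of the stack in VPM against 60.6 to 81.9% in dLG.

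Robo1 and Robo2 are neighbours on mouse chromosome 16, on opposite strands and with their 3′ ends facing each other. Robo1 spans chr16:72308306-73046095 on the plus strand and Robo2 chr16:73891839-74411825 on the minus strand (GRCm38), 846 kb apart. The 250 bases before a RefSeq start site of each are shown, because these are the receptors whose proportion differed among the nuclei. Both windows lie outside annotated exons, and the sequences are from RefSeq on GRCm38.p6. The Robo1 window is chr16:72662899-72663148, on the plus strand, before a start site inside the annotated gene. The Robo2 window is chr16:74411826-74412075, on the minus strand. It directly precedes the annotated gene, which has 2 more RefSeq start sites further upstream.
Robo1: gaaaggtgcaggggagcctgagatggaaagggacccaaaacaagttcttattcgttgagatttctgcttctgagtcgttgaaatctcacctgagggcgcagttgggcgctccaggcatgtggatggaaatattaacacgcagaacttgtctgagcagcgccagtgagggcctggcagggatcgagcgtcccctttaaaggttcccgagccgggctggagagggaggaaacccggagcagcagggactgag
Robo2: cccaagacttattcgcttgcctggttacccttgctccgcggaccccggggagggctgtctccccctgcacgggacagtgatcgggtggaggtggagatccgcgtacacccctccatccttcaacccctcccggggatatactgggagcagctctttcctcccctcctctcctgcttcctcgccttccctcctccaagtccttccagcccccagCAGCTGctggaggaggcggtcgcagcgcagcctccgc
Capitals mark the letters CAGCTG, an E-box. Both strands were searched for CAGCTG, for the homeodomain core TAATTA and for the nuclear receptor motif AGGTCA, and the motifs do not overlap in these windows. The Robo1 window held none of these motifs, and nor did the windows before the other RefSeq start sites of Robo2, which are not shown. Over 32851 RefSeq promoter windows of this length, 13.0% held CAGCTG, 4.8% TAATTA and 14.0% AGGTCA, so that a match is common and is given only as a description. RefSeq windows were found for 6 of the 10 genes, 8 windows in all, of which 1 held CAGCTG, 1 TAATTA and 0 AGGTCA.

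Among the ligands, Slit1 (chr19:41600257-41743665, minus strand) was the main Slit in all nuclei. Its levels were between 7.83 and 10.3 CPM in dLG, 6.02 and 9.51 CPM in VPM, and 7.36 and 14.0 CPM in MGv, and the libraries overlapped in every pair. The log2 differences were 0.21 between dLG and VPM (95% interval from -0.29 to 0.71), -0.14 between dLG and MGv (-0.68 to 0.40) and -0.35 between VPM and MGv (-0.89 to 0.19), with edgeR adjusted p of 0.696, 0.797 and 0.407. Slit1 made up 89.6 ± 3.63%, 93.6 ± 2.26% and 94.5 ± 2.13% of the summed Slit level per kb in dLG, VPM and MGv.

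Slit2 (chr5:47983138-48307733, plus strand) was low and highest in dLG on average, at 1.34, 2.11, 0.872 and 2.15 CPM. It was at 0.556, 0.736, 0.930 and 0.618 CPM in VPM and at 0.977, 0.702 and 0.875 CPM in MGv. All dLG libraries except replicate 3, the library with 467 CPM of blood markers, lay above all libraries of VPM and MGv. The part of blood RNA in this was not tested. The log2 difference between dLG and VPM was 1.19 ± 0.44 (SE, edgeR adjusted p = 0.132), with a 95% interval from 0.25 to 2.13, and it rests on 12 to 49 counts per library. It passed the threshold without dLG replicate 3 (log2 difference 1.39, adjusted p = 0.0860) and without VPM replicate 3 (1.34, adjusted p = 0.0992). It also passed with DESeq2 (adjusted p = 0.0789), limma voom (0.0245), total counts (0.0960) and a term for the low-Hspa8 libraries (0.0971). It did not pass with no count filter (0.361), replicate number as a block (0.231) or without the 3 low-Hspa8 libraries (0.187). Nor did it pass with DESeq2 size factors (0.140), a robust fit (0.135), only the nuclei compared (0.127) or thinned counts. Leaving out any other single library also left it above the threshold (adjusted p from 0.128 to 0.320). The log2 ratio of Slit1 to Slit2 averaged 3.36 ± 0.62 (SD, n = 4) for dLG, 4.23 ± 0.57 (SD, n = 4) for VPM and 4.25 ± 0.54 (SD, n = 3) for MGv, and did not pass an exact permutation test (p = 0.111, adjusted p = 0.221). Slit3 had at most 6 counts in a library, 0.260 CPM, and 0 counts in 4 libraries.

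Ntn1, which encodes netrin-1, was near the floor. It had 0 to 5 counts in the dLG libraries, 2 to 9 in VPM and 4 to 16 in MGv. In CPM, the MGv libraries, at 1.20, 0.351 and 0.389, lay above those of dLG, at 0.0609, 0.129, 0 and 0.239. The counts of the 2 nuclei overlapped, and the MGv libraries were the shallowest. The part of depth in this was not tested. Robo3, a receptor known from commissural axons, had 0 counts in 6 libraries, 1 to 4 counts in 4 others and 11 counts (1.07 CPM) in MGv replicate 3.

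Dcc, the receptor for attraction to netrin-1, was low in every nucleus, with 1 to 28 counts per library. It was at 0.426, 0.430, 0.708 and 0.430 CPM in dLG, 0.510, 0.779, 0.0620 and 0.238 CPM in VPM, and 1.43, 0.351 and 2.72 CPM in MGv. Both MGv replicates 1 and 3 lay above all libraries of the other nuclei, and MGv replicate 2 lay among them. The log2 difference between VPM and MGv was -1.86 ± 0.75 (SE, edgeR adjusted p = 0.123) and that between dLG and MGv -1.57 ± 0.74 (SE, edgeR adjusted p = 0.217). Without MGv replicate 2 the difference between VPM and MGv was -2.32 (adjusted p = 0.0680), and without VPM replicate 2 it was -2.40 (adjusted p = 0.0959), and DESeq2 gave an adjusted p of 0.0810. Without MGv replicate 3 it was -1.13 (adjusted p = 0.470), and with limma voom -0.89 (adjusted p = 0.382). The difference between dLG and MGv was -0.85 without MGv replicate 3 (adjusted p = 0.655) and -0.89 with limma voom (adjusted p = 0.466). Between dLG and VPM the log2 difference was 0.29, with a 95% interval from -1.25 to 1.82, which includes a 2-fold difference in either direction.

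Unc5d (chr8:28646717-29219636, minus strand), a receptor for netrin-1 and for the membrane protein FLRT2, varied more between libraries of a nucleus than between nuclei. It was at 0.477 to 5.11 CPM in dLG, 0.248 to 2.81 CPM in VPM and 0.263 to 4.86 CPM in MGv. The log2 differences were 0.23 between dLG and VPM (95% interval from -1.62 to 2.08), -0.50 between dLG and MGv (-2.50 to 1.50) and -0.73 between VPM and MGv (-2.74 to 1.27), with edgeR adjusted p of 0.927, 0.805 and 0.664. The direction of the first turned without dLG replicate 2, to -1.18, and those of the other two without MGv replicate 3, to 0.31 and 0.09.

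Ratios of Dcc to the UNC5 receptors were well below 1 for Unc5c. The log2 ratio of Dcc to Unc5c per kb averaged -6.36 ± 0.54 (SD, n = 4) for dLG, -5.75 ± 1.17 (SD, n = 4) for VPM and -4.86 ± 1.28 (SD, n = 3) for MGv, and did not differ among the nuclei past the threshold (exact permutation test, p = 0.214, adjusted p = 0.286). The log2 ratio of Dcc to Unc5d was -1.29 ± 1.59, -2.02 ± 0.77 and -0.61 ± 0.70 in dLG, VPM and MGv (exact permutation test, p = 0.318, adjusted p = 0.318). It passed 0.05 without dLG replicate 2 (adjusted p = 0.0457).

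**Figure D3:**
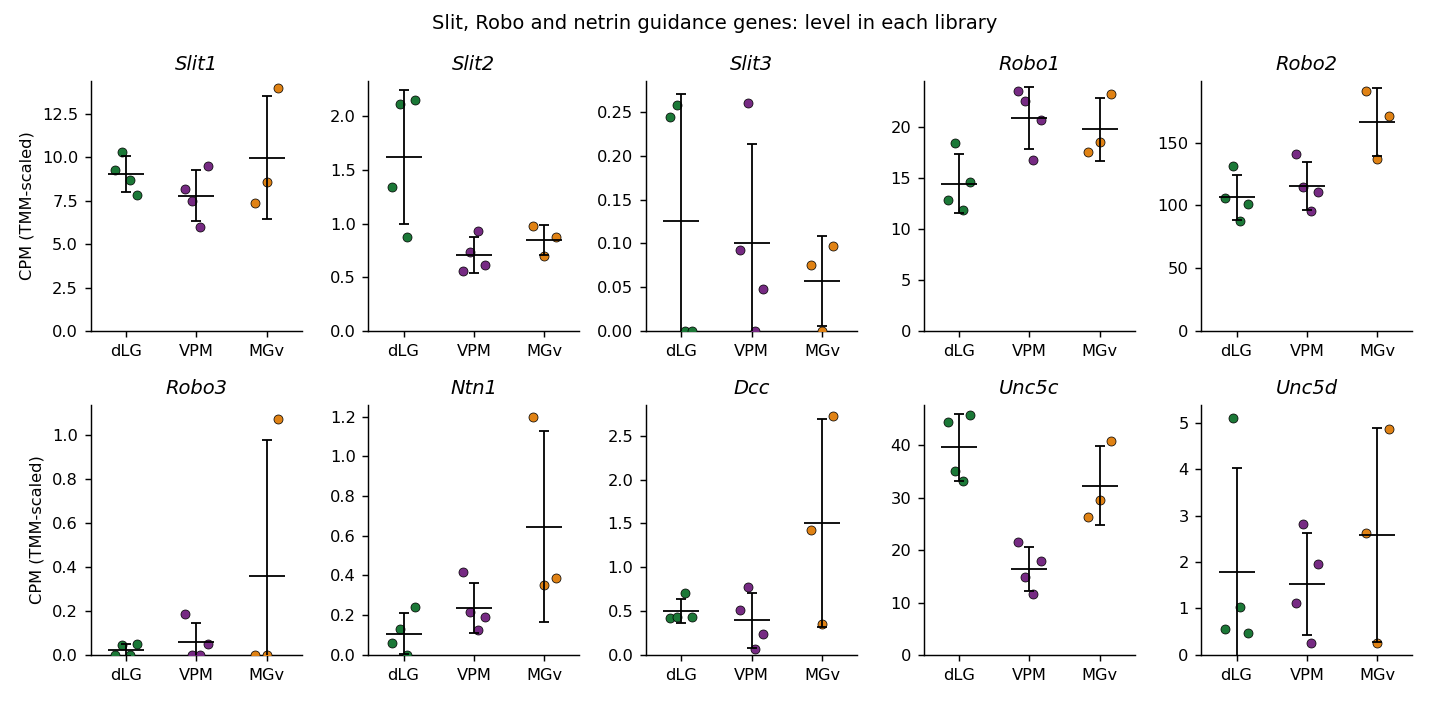
Level of each of the 10 guidance genes in each library, in TMM-scaled CPM on linear axes that start at 0 and differ between genes. Points are libraries, and bars with whiskers are the mean and SD of each nucleus, cut at 0 where the SD exceeds the mean. The 4 VPM libraries of Unc5c, at 11.7 to 21.5 CPM, sit below all others, and the 3 MGv libraries of Robo2, at 137 to 191 CPM, sit above those of dLG.

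**Figure D4:**
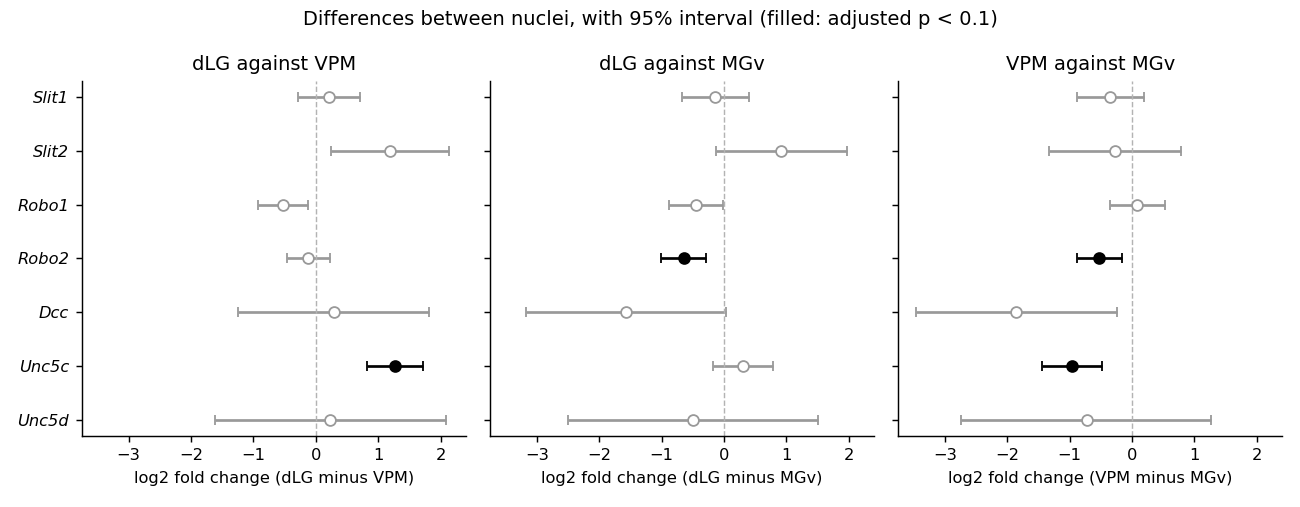
Log2 fold change of the 7 genes tested in each pair of nuclei (first minus second), with the 95% interval. Filled points passed an adjusted p under 0.1 in edgeR's quasi-likelihood test. Unc5c is filled in both pairs with VPM (1.27 and -0.97) and Robo2 in both pairs with MGv (-0.64 and -0.53), while the intervals of Dcc and Unc5d are the widest.

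For the genes whose pattern was most like each one, Pearson's r of log2 CPM was computed over the 11 libraries against genes with a mean of at least 10 CPM. The libraries share depth and composition, so these values are only a description. Unc5c varied most like Ptprr, a receptor-type tyrosine phosphatase, and Tenm3, a teneurin adhesion protein (r = 0.96 for both). Robo1 varied most like Trim67 (r = 0.96) and the cadherin Cdh4 (r = 0.95), and Robo2 most like Zfp551 and Nbea (r = 0.95 for both). The nearest genes were Fnbp1l and Fra10ac1 for Slit1 (r = 0.88 and 0.85), Def6 and Rabggta for Slit2 (r = 0.90 and 0.88), Zbtb38 and Tax1bp1 for Dcc (r = 0.93 and 0.92) and Hmgxb3 and Sp4 for Unc5d (r = 0.90 for both).

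Other genes of these pathways were taken from 2 lists, 26 further ligands and receptors and 30 signalling genes. Of the ligands and receptors, 22 were tested, and 7, 10 and 13 were called between dLG and VPM, dLG and MGv, and VPM and MGv, where 10.7%, 16.1% and 19.0% of all genes tested were called. The 7 and the 13 include Unc5b, which passed the count filter only through VPM. The median size of the log2 differences of the ligands and receptors, Unc5b included, was 0.39, 0.54 and 1.01, against 0.27, 0.32 and 0.36 over all genes tested. Of the signalling genes, 29 were tested, and 2, 3 and 3 were called in the same pairs, with median sizes of 0.14, 0.23 and 0.19. Because both lists were chosen with earlier results of these data known, the counts and sizes are only a description.

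Apart from Unc5a and Unc5b, the genes named from these lists are the 6 with the smallest adjusted p in each pair. Flrt3, a co-receptor of Robo1, was at 51.1 ± 3.47 CPM in MGv (SD, n = 3), 4.31-fold above VPM (11.9 ± 0.799 CPM, SD, n = 4, edgeR adjusted p = 1.47e-05) and 3.32-fold above dLG (15.4 ± 4.21 CPM, SD, n = 4, edgeR adjusted p = 6.33e-05). Its relative Flrt2, a ligand of UNC5 receptors, went the other way, at 5.50 ± 4.24 CPM in MGv (SD, n = 3) and 29.3 ± 6.45 CPM in VPM (SD, n = 4, edgeR adjusted p = 0.00150). In dLG, Flrt2 was at 22.2 ± 4.97 CPM (SD, n = 4, edgeR adjusted p against MGv = 0.00430). Adgrl2, a latrophilin that binds FLRT proteins, was 7.02-fold higher in dLG than in MGv and 6.66-fold higher in VPM than in MGv (edgeR adjusted p = 2.16e-05 and 2.87e-05), and Lrrc4c, the netrin-G1 ligand, was 4.37-fold and 3.70-fold higher (edgeR adjusted p = 1.22e-05 and 3.27e-05).

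Rgma, a repulsive ligand of the DCC relative neogenin, formed steps, with a dLG mean of 45.7 ± 10.9 CPM (SD, n = 4), a VPM mean of 15.5 ± 4.03 CPM (SD, n = 4) and an MGv mean of 5.36 ± 1.26 CPM (SD, n = 3), and passed in all 3 pairs (edgeR adjusted p = 0.000690, 9.34e-06 and 0.00168). Myo10, a motor protein that carries DCC into filopodia, was at 54.4 ± 14.4 CPM in dLG (SD, n = 4), 4.46-fold above VPM and 4.04-fold above MGv (edgeR adjusted p = 6.01e-05 and 0.000184). Adgrl1, another latrophilin, was 2.10-fold higher in VPM than in dLG and 1.95-fold higher than in MGv (edgeR adjusted p = 0.00222 and 0.00563). Gpc1, a heparan sulphate proteoglycan that binds Slits, was 2.16-fold higher in VPM than in dLG (edgeR adjusted p = 0.00414). In MGv, Gpc1 was 1.56-fold higher than in dLG (edgeR adjusted p = 0.0768). The secreted proteins Nell1 and Nell2, of which Nell2 is a ligand of Robo3, were 1.79-fold and 1.56-fold higher in VPM than in dLG (edgeR adjusted p = 0.00776 and 0.0114), and Nell1 was 2.07-fold higher in VPM than in MGv (edgeR adjusted p = 0.00252). Nell2 was also 1.50-fold higher in MGv than in dLG (edgeR adjusted p = 0.0193). Nck2, an adaptor of guidance receptors, was 2.29-fold higher in dLG than in MGv and 2.13-fold higher in VPM than in MGv (edgeR adjusted p = 0.00353 and 0.00680).

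**Figure D5:**
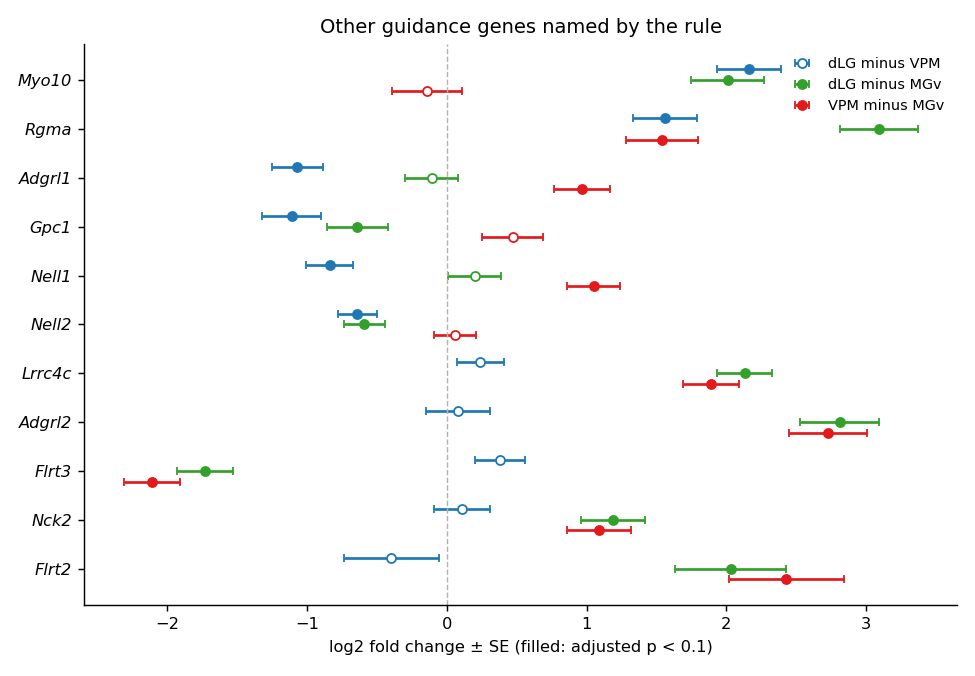
Log2 fold change ± SE of the 11 further guidance genes named, in each pair of nuclei (colours, first minus second). Filled points passed an adjusted p under 0.1 in edgeR's quasi-likelihood test. Flrt3 lies left of 0 in both pairs with MGv (-1.73 and -2.11), Adgrl2 and Lrrc4c right of 0 in the same pairs, and Rgma is filled in all 3 pairs.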

How the data were processed

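RNA of tdTomato-positive neurons was amplified and sequenced as single reads of 50 bases. Raw read counts per gene were deposited, 1 table per library. Per the study's methods and the submitters' processing notes, the authors trimmed reads (Trim Galore 0.6.1), aligned them to GRCm38 with STAR 2.7.0d and counted Ensembl genes with featureCounts (Subread 1.6.4). Strand setting and treatment of multiply aligned reads are not given in the sources used here.

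Groups and replicate numbers came from sample titles, and symbols and positions from GENCODE M21 (54723 of 54752 identifiers). The 10 genes, the lists, tests and alternatives were chosen with earlier results of these data known. Counts were tested with edgeR 4.0.16 (R 4.3.3): filterByExpr (15907 genes kept), TMM scaling, 3 group means over all 11 libraries, quasi-likelihood tests, Benjamini-Hochberg adjustment, threshold 0.1. The SE is the absolute log2 fold change over the square root of F. log2 CPM used a prior count of 2. Ratios used 0.5 added counts and exact permutation, threshold 0.05, and the smallest p allowed is 0.000173. DESeq2 1.42.0 and limma 3.58.1 (voom) were alternatives. Models were tested on simulated data.

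Named were all 10 genes, up to 6 pathway genes per pair with the smallest adjusted p, and per tested gene the 2 genes (mean of at least 10 CPM) with the highest correlation. Unc5a and Unc5b were named after their values were seen. Per-length levels used the longest coding transcript. Totals were 10.2 to 23.6 M counts.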

Additional observations from a re-analysis of the deposited data

Results flagged for a closer look

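Of 28 sets of 4 values (the 10 genes and 4 ratios in dLG and in VPM), 3 held a library far from the other 3 by Dixon's test at its 95% critical value, where chance flags about 5% of sets. MGv, with 3 libraries, was not tested. Unc5d was at 5.11 CPM in dLG replicate 2, against 0.548, 1.04 and 0.477 CPM in the other dLG libraries (gap over range 0.880). The log2 ratio of Dcc to Unc5d, which contains the same Unc5d value, was -3.67 in that library, against -0.50, -0.69 and -0.31 (0.887). Dcc was at 0.708 CPM in dLG replicate 3, the library with 467 CPM of blood markers, against 0.426, 0.430 and 0.430 CPM (0.988), which is 13 counts against 7, 10 and 9.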

How the results depend on the processing

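The number of the 10 genes called between dLG and VPM was 1. It was 3 with DESeq2, with limma voom and with a term for the low-Hspa8 trio, and 2 with DESeq2 size factors, total counts, at least 10 counts in every library and without that trio (an alternative chosen after seeing the data). In each case Unc5c was joined by Robo1, Slit2 or both. Leaving out each library gave 1 to 3. Between dLG and MGv the number was 1, with 2 without the trio, 0 with a log2 change over 1 also required, and 0 to 2 leaving out each library. Between VPM and MGv it was 2, with 3 for DESeq2 and with a term for the trio (Dcc was added), 1 for voom, without the trio and at an adjusted p under 0.05, 0 with a log2 change over 1, and 1 to 3 leaving out each library. Among all nuclei it was 2, with 5 for DESeq2, 4 for voom and 1 to 3 leaving out each library. The adjusted p of the Robo1 to Robo2 ratio went from 0.0111 to 0.110 without the trio, where 8 libraries remain, and was 0.00381 to 0.0356 leaving out each library. That of Dcc to Unc5d was 0.0457 to 0.573 leaving out each library.

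Directions turned only for genes that were not called. For Unc5d between dLG and VPM, the log2 difference of 0.23 became -0.90 with voom, -0.07 with the replicate block, -0.23 with a term for the trio and -1.50 without it, and ranged from -1.18 to 0.70 leaving out each library. Between VPM and MGv it was 0.48 with voom and -1.26 to 0.09 leaving out each library, and between dLG and MGv -1.89 to 0.31. Dcc between dLG and VPM was -0.0028 with voom and -0.03 to 0.83 leaving out each library. Slit1 between dLG and MGv was 0.0031 with voom and -0.32 to 0.18 leaving out each library. The causes were not tested.

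Same-numbered libraries of different nuclei had correlations of deviations from -0.203 to 0.483 (mean 0.015, 10 pairs), against a mean of -0.005 for the other 30 pairs. The highest, 0.483, was between replicate 4 of dLG and of VPM. Of 11 libraries, 4 correlated best with their own number. These values cannot tell whether same-numbered libraries came from the same brains. With the replicate block, 1, 1 and 2 of the genes were called in the 3 pairs and 2 among all nuclei, as without it, and the Robo1 to Robo2 ratio had an adjusted p of 0.0370. Depth limits Slit2, Dcc and Unc5d, and Slit3, Robo3 and Ntn1 lie near the floor of 3 counts.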
